A study of Mus musculus with 6 samples.

Results

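The RNA of 9 genes of the PI3K, AKT and mTOR pathway was followed in regulatory T cells (Tregs), a kind of CD4 T cell that holds immune responses in check. The genes were taken by name (Pik3cd, Pik3r1, Akt1, Akt2, Mtor, Rptor, Rictor, Tsc1 and Tsc2), and all 9 were found among the 23724 genes with a symbol in the deposited tables. The mice were C57Bl/6, and all were immunised with myelin oligodendrocyte glycoprotein (MOG), a protein of the myelin sheath. Each of the 6 libraries holds RNA of 500 Tregs of the lymph nodes. Wild-type (WT) animals gave 3 libraries, and animals that lack MOG in the whole body (MOG KO) gave the other 3. The labels give neither the age of the mice nor the gate used to isolate the cells, and they do not say whether each replicate is a separate mouse. The p-values therefore measure the spread between these libraries, part of which may be technical.

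PI3K is a lipid kinase that antigen receptors, costimulatory receptors and cytokine receptors switch on. Its product, a phosphorylated membrane lipid, draws the kinase AKT to the membrane, and AKT inhibits the TSC1-TSC2 complex and so releases the kinase mTOR. In complex 1, which holds raptor (Rptor), mTOR drives protein synthesis and growth. In complex 2, which holds rictor (Rictor), it phosphorylates AKT in turn. Tregs are known to keep this pathway under tight restraint, because strong AKT signalling inactivates the FOXO factors on which Treg identity depends.

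Total gene counts were 2717969 to 4472549 per library, and values are given as RPM, the reads of a gene scaled to a total of 1000000 per library. Presence of a gene in a library means 10 RPM or more here. A count of 0 allows up to 3 counts, which is 0.671 to 1.1 RPM depending on the library. The labels mention no molecular identifiers, so these limits cover counting error only. The 4 Treg markers Foxp3, Il2ra, Ctla4 and Ikzf2 summed to 2084 to 3141 RPM in WT libraries and to 2108 to 2974 RPM in those of MOG KO. Foxp3 was at 8.22 RPM in WT replicate 3 and at 326 RPM or more in the other 5 libraries. That library also had the fewest genes present, 2701 against 3265 to 4440. Markers of CD8 T cells and NK cells (2 genes each) had 0 counts in all libraries. B cell markers (4 genes, of which Cd79a had 0 counts) summed to 2.21 to 206 RPM in WT libraries and to 0 to 129.8 RPM in those of MOG KO. Myeloid markers (5 genes) summed to 5.81 to 19.5 RPM in WT libraries and to 6.24 to 194 RPM in those of MOG KO. The targeted gene Mog had 1 count over all libraries, so it does not check the labels. With bulk RNA, fewer cells that use a gene and less RNA per cell cannot be told apart.

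The 9 genes have 16 annotated promoter windows of 300 bases in RefSeq (build GRCm38.p6), each running from 250 bases before a transcript start to 50 after it. These were searched on both strands for 3 motifs. TGTTTAC, the core that FOXO factors bind, was in 3.65% of all 32851 such windows. CCGGAAGT, a motif of the ETS family, was in 3.89%, and the E-box CACGTG in 7.15%. None of the 3 motifs shares a base with another in the windows printed here. The 3 windows with a match are shown because one belongs to Akt1, the gene with the highest level per length, and the other pair to Mtor and Tsc2, each present in 1 library. Rptor, without a match, is shown beside Tsc2 because both were present in the same library only. Capitals mark the motif, and each sequence reads 5′ to 3′ in the direction of the gene. The windows are chr12:112674835-112675134 for Akt1 (minus strand), chr4:148448332-148448631 for Mtor (plus strand), chr17:24632578-24632877 for Tsc2 (minus strand) and chr11:119602655-119602954 for Rptor (plus strand).
Akt1: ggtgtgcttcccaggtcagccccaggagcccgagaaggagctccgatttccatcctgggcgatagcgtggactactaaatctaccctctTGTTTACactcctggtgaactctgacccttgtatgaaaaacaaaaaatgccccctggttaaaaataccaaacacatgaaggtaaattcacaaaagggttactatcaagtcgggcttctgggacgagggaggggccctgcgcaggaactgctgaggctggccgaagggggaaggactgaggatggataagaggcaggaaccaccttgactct
Mtor: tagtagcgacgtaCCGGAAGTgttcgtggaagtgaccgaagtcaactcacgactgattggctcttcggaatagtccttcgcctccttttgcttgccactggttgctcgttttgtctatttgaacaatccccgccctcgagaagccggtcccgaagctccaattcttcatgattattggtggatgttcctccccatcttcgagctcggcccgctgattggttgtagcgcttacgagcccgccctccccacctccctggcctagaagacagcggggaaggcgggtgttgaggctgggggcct
Tsc2: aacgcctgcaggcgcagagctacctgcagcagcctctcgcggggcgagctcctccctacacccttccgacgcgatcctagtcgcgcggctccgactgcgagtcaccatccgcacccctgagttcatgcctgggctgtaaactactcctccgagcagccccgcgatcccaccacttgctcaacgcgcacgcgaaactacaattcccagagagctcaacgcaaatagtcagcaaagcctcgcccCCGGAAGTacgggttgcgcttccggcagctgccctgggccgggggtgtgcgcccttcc
Rptor: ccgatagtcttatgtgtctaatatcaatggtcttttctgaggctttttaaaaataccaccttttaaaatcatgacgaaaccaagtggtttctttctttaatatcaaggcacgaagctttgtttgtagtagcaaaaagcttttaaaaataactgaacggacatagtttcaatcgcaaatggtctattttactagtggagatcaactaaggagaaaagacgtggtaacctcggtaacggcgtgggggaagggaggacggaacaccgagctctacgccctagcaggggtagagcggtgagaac
The FOXO match of Akt1 starts 161 bases before the transcript start, and Akt1 has another window without one. The ETS matches start 237 bases before the start in Mtor and 8 bases before it in Tsc2. The last bases of the Mtor window were not found in a GENCODE transcript of that gene. Its distance therefore holds for the RefSeq start only. A match is a description of the letters and not evidence of binding.

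Of the 9 genes, 7 were read at 100 RPM or more in some libraries and near 0 in others, and Mtor and Tsc1 were low throughout. Of their 54 values, 29 were under 3 RPM, 18 were at 100 RPM or more and 7 lay in between. This resembled all 7908 genes present in at least 1 library, which had 52.0% of values under 3 RPM and 31.8% at 100 RPM or more, against 53.7% and 33.3% of the values here. Each of the 9 genes was present in at least 1 library and 0 of them in all 6. WT replicates 1, 2 and 3 had 3, 6 and 3 of the genes present, and MOG KO replicates 1, 2 and 3 had 4, 2 and 4. Together 40.7% of the values were at 10 RPM or more, against 44.9% over the 7908 genes. Pairs within a genotype differed in the presence of 2 to 5 of the 9 genes (median 3.5, 6 pairs). Pairs of different genotype differed in 1 to 6 (median 4, 9 pairs).

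**Figure D1:**
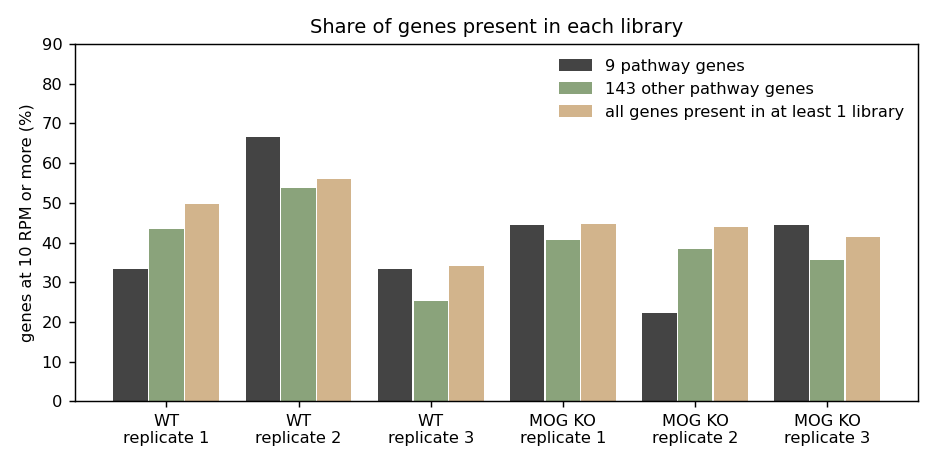
Bars show the percentage of genes at 10 RPM or more in each library (y axis, from 0) for the 9 genes, for 143 other pathway genes and for all genes present in at least 1 library. The 143 include 35 genes present in no library, which the third set leaves out. Among the 108 present in at least 1 library, 52.3% of values were present, against 44.9% in the third set. WT replicate 2 has the highest share in all 3 sets, 66.7%, 53.8% and 56.1%, and the shares of both genotypes overlap.

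None of the 9 genes passed edgeR's test between genotypes. 3 of them (Pik3cd, Akt1 and Akt2) passed the filter on low counts and were tested in edgeR's quasi-likelihood fit of 4087 genes, where 0% of genes had an adjusted p under 0.05. By unadjusted p under 0.05, 5.11% of all genes tested passed and 0 of these 3. In 10.5% of the genes tested, all 3 libraries of a genotype lay above all 3 of the other. This held for 0 of the 3 tested genes here, too few to compare with that share, and for 0 of the 6 not tested. DESeq2 called 15.9% of the 4677 genes to which it gave an adjusted p, and 1 of the 5 genes here that had one, Pik3r1. For Rptor, Rictor, Tsc1 and Tsc2 DESeq2 gave no p-value, as it does where it marks a count as an outlier.

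**Figure D2:**
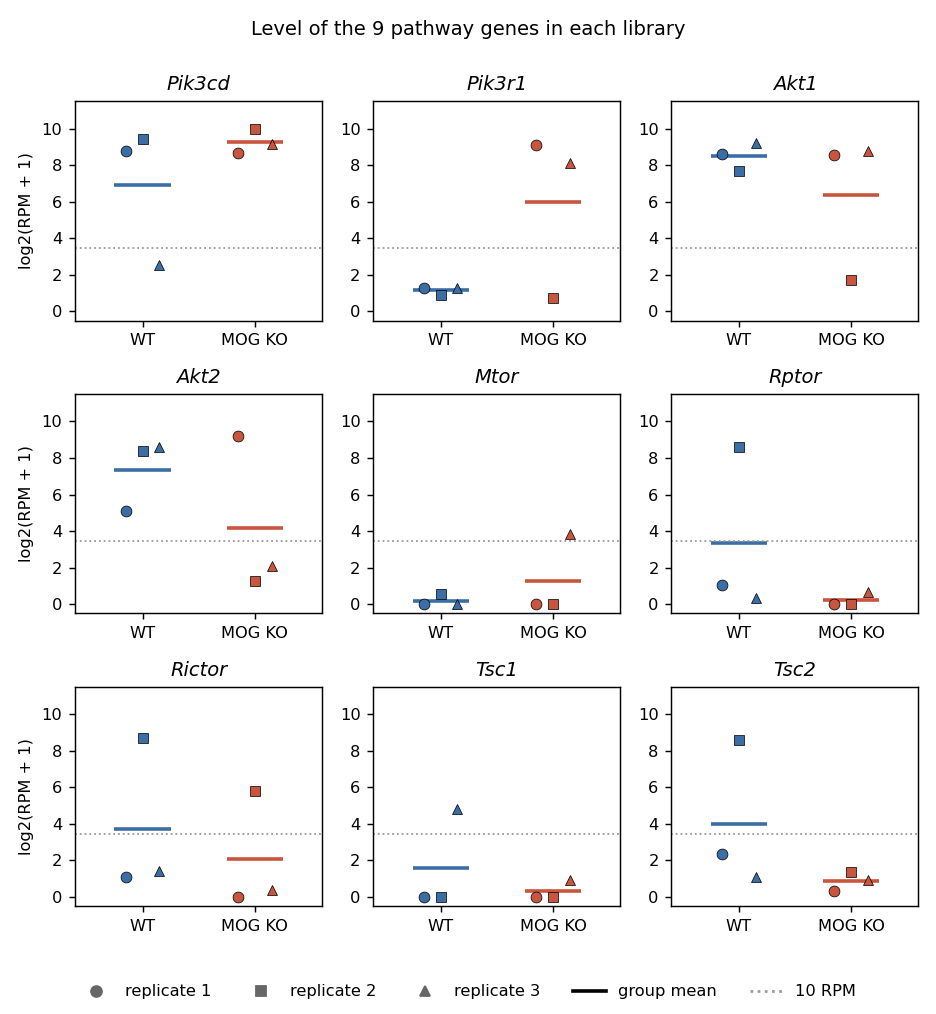
Each panel plots 1 gene, with log2(RPM + 1) on the y axis, the 3 WT and 3 MOG KO libraries as points, the group mean as a bar and 10 RPM as a dotted line. Akt1 and Pik3cd are high in 5 of 6 libraries, and Rptor, Tsc1, Tsc2 and Mtor rise above the line in 1 library each.

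The catalytic subunit of PI3K was read in most libraries and its regulatory subunit in 2 MOG KO libraries. Pik3cd (Entrez 18707, GRCm38 chromosome 4, 149649168 to 149702571) encodes p110-delta, the catalytic subunit that predominates in lymphocytes. It had 440.4, 681 and 4.82 RPM in WT replicates 1, 2 and 3, and 401, 1025 and 571 RPM in MOG KO replicates 1, 2 and 3. Only WT replicate 3, the library low in Foxp3, lay under 10 RPM, and the groups overlapped. The mean was 375 ± 343 RPM for WT and 666 ± 323 RPM for MOG KO (SD, n = 3). The log2 fold change (MOG KO minus WT) was 0.85 ± 1.31 (SE), with a 95% interval of -2.19 to 3.89 and an adjusted p of 1 in edgeR. Without WT replicate 3 it was 0.28 ± 0.56, without MOG KO replicate 2 it was 0.41 ± 1.6 and without WT replicate 2 it was 1.59 ± 1.61.

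Pik3r1 (Entrez 18708, chromosome 13, 101680563 to 101768217) encodes p85-alpha, the regulatory subunit that holds the catalytic subunit at receptors. It was near 0 in all 3 WT libraries, with 1.47, 0.894 and 1.42 RPM (4, 4 and 5 counts). In MOG KO it had 541, 0.688 and 282 RPM. Thus 2 MOG KO libraries were high and the third was near 0, like the WT libraries. The groups overlapped, but only by 3 counts there against 4, 4 and 5, too few to order these libraries. Pik3r1 did not pass the filter. An exact two-sided permutation test of the RPM values gave p = 0.4, where 0.1 is the smallest that 3 libraries against 3 allow. In DESeq2 it passed as higher in the knockout, at a log2 fold change of 7.51 and an adjusted p of 0.0102. In edgeR without the filter the log2 fold change was 7.66 ± 3.83 with an adjusted p of 0.449, and 0% of 12316 genes were called. Without MOG KO replicate 2, where it had 3 counts, edgeR gave 8.21 ± 2.92 with an adjusted p of 0.618. The call of Pik3r1 thus depended on the tool.

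The AKT kinases were the other tested genes. Akt1 (Entrez 11651, chromosome 12, 112653821 to 112674884), the widely used form of the kinase, was at 394, 202 and 605 RPM in the WT libraries and at 376, 2.29 and 441 RPM in those of MOG KO. It was high in 5 libraries and near 0 in MOG KO replicate 2. The mean was 400.3 ± 201 RPM for WT and 273 ± 237 RPM for MOG KO (SD, n = 3). The log2 fold change was -0.66 ± 1.59 with a 95% interval of -4.38 to 3.05, and -0.09 ± 1.21 without MOG KO replicate 2 (adjusted p = 1 in edgeR for both). It was -0.12 ± 1.9 without WT replicate 3 and -1.25 ± 2.01 without MOG KO replicate 3.

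Akt2 (Entrez 11652, chromosome 7, 27591552 to 27640826), the form best known for insulin responses, was at 32.7, 334 and 386 RPM in the WT libraries and at 588, 1.38 and 3.19 RPM in those of MOG KO. It was thus present in every WT library and in 1 MOG KO library, which had the highest value of the 6. The log2 fold change was -0.5 ± 2.31 with a 95% interval of -5.88 to 4.88 and an adjusted p of 1 in edgeR. It was -6.82 ± 3.4 without MOG KO replicate 1 (adjusted p = 0.616) and 0.14 ± 2.83 without WT replicate 3. Akt1 and Akt2 were both near 0 in MOG KO replicate 2, while Pik3cd had its highest value there. That library also had the highest sum of myeloid markers (194 RPM, of which Cd68 gave 188 and Lyz2 3.21), and its part in these values was not tested.

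Mtor (Entrez 56717, chromosome 4, 148448611 to 148557683), which encodes the kinase shared by both complexes, was the least read of the 9 genes. It was at 0, 0.447 and 0 RPM in the WT libraries and at 0, 0 and 13.6 RPM in those of MOG KO, the sums of 2 and 47 counts. A single library, MOG KO replicate 3, passed 10 RPM. With so few counts outside that library the genotypes could not be compared for Mtor (exact two-sided permutation p = 1).

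The scaffold genes of the complexes shared their highest library. Rptor (Entrez 74370, chromosome 11, 119602905 to 119899576), which recruits substrates to complex 1, was at 1.1, 393 and 0.283 RPM in the WT libraries and at 0, 0 and 0.58 RPM in those of MOG KO. WT replicate 2 held 99.7% of its counts. Rictor (Entrez 78757, chromosome 15, 6708379 to 6800401), which defines complex 2, was at 1.1, 419 and 1.7 RPM in the WT libraries and at 0, 54.3 and 0.29 RPM in those of MOG KO. Replicate 2 of both genotypes was above 10 RPM, and WT replicate 2 held 88.4% of the counts. The exact two-sided permutation p was 0.2 for Rptor and 0.5 for Rictor. The same libraries had the highest sums of B cell markers, 206 RPM in WT replicate 2 and 129.8 RPM in MOG KO replicate 2, nearly all from Cd79b, with Cd79a at 0. The part of such reads in the values of Rptor and Rictor was not tested.

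The inhibitory TSC genes were also read in single libraries. Tsc1 (Entrez 64930, chromosome 2, 28641228 to 28691167), whose product stabilises TSC2, was at 0, 0 and 27.2 RPM in the WT libraries and at 0, 0 and 0.869 RPM in those of MOG KO. Tsc2 (Entrez 22084, chromosome 17, 24595816 to 24632630), which inactivates the GTPase RHEB, was at 4.05, 378 and 1.13 RPM in the WT libraries and at 0.231, 1.61 and 0.869 RPM in those of MOG KO. Tsc1 was thus present in WT replicate 3 only and Tsc2 in WT replicate 2 only. No library had both partners at 10 RPM or more. The exact two-sided permutation p was 1 for Tsc1 and 0.2 for Tsc2. In edgeR without the filter, the adjusted p of the 6 genes that did not pass it lay between 0.449 (Pik3r1 and Rptor) and 0.694 (Rictor).

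Neighbouring genes could add reads to 2 of these. Exons of Tsc2 overlap those of Pkd1 on the opposite strand by 693 bases, and the strand setting of the counting is not given in the sources used here. Pkd1 was at 513, 12.3 and 0 RPM in the WT libraries and at 0.231, 209 and 167 RPM in those of MOG KO. WT replicate 2, where Tsc2 was high, was the library with 12.3 RPM of Pkd1. Exons of Rptor share 84 bases with the antisense gene Rptoros, which had 131 counts (29.3 RPM) in WT replicate 2 and 0 in the other libraries. Their part in the values of Tsc2 and Rptor was not tested.

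Scaled to the length of the exons, the order of the mean levels over 6 libraries ran from Akt1 to Mtor. Akt1 had 125 RPM per kb, Pik3cd 97.9, Akt2 46.5, Pik3r1 18.2, Tsc2 10.1, Rptor 9.98, Rictor 8.54, Tsc1 0.604 and Mtor 0.267. The ranges over libraries overlapped for every pair of neighbours in this order, so no neighbours differed beyond their spread. In the library where each was highest, Tsc2 and Rptor had 59.6 RPM per kb and Rictor 45, against 75.2 for Akt1 in that same library. The 3 shortest gene models (Akt1 2.69 kb, Akt2 4.83 kb and Pik3cd 5.32 kb of exon) belong to the 3 genes present in most libraries. Among all genes present in at least 1 library, those of 2 to 4 kb were present in 44.0% of library values. The share was 43.1% for 4 to 6 kb, the class of Pik3cd and Akt2, and 48.9% for under 2 kb. It was 44.6% for 6 to 8 kb and 45.8% for over 8 kb.

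**Figure D3:**
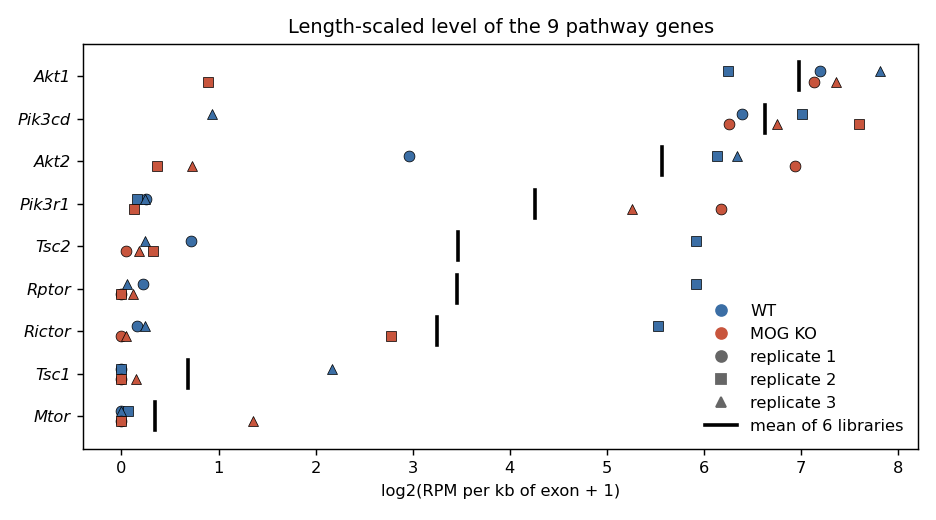
Points give each library's level of each gene as log2(RPM per kb of exon + 1) on the x axis, coloured by genotype and shaped by replicate, and the black bar marks the mean of 6 libraries. Genes are ordered by that mean, from Akt1 (125 RPM per kb) to Mtor (0.267), and the points of neighbouring genes overlap.

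Many other genes had the same pattern of presence over the 6 libraries. Rptor and Tsc2 shared theirs with 652 other genes each, Mtor with 332, Tsc1 with 265, Pik3cd with 246, Rictor with 177, Akt1 with 97, Akt2 with 88 and Pik3r1 with 84. By the smallest mean absolute difference of log2(RPM + 1) over 6 libraries, the gene most like Akt1 was Ap1g2 (0.16), which was at 334, 181 and 681 RPM in the WT libraries and at 415, 2.29 and 368 RPM in those of MOG KO. The gene most like Pik3cd was Nono (0.33), the one most like Akt2 was Ctps2 (0.36), and the one most like Pik3r1 was Ftsj3 (0.37). For the others these were Snx19 for Rptor (0.07), Setd7 for Mtor (0.08), 6230400D17Rik for Tsc1 (0.15), Nfe2l1 for Tsc2 (0.2) and Rapgef2 for Rictor (0.31). With 6 libraries these are descriptions of the profiles only.

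The other genes of the pathway were described from 9 lists with 143 genes in the table. Of these 108 were present in at least 1 library, 17 in all 6, and 71 were tested. In edgeR 0 passed, 39 had positive and 32 negative fold changes, and the median was 0.13, against 0.06 over all 4087 genes tested. Of all genes tested, 52.0% had positive fold changes, and the median SE was 2.42. Signs and medians of the single lists below rest on few genes and are descriptions only. By unadjusted p under 0.05 there were 5 (7.04%), against 5.11% of all genes tested. The groups did not overlap in 9 of the 71 (12.7%), against 10.5%. DESeq2 called 10 of 72 (13.9%), 5 in each direction, against 15.9%. In each list the pair of tested genes with the smallest p was to be named, and Inpp5d, Pik3ca, Pik3cb, Pik3cg, Pik3r2, Pik3r3, Foxo1, Pdpk1, Mlst8 and Rps6kb1 were added after their values were seen.

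Of the phosphatases that oppose PI3K, 3 of 10 were read in all 6 libraries. Of the 6 tested phosphatases 4 were positive and 2 negative, with a median of 0.61. Inpp5k, which removes a phosphate from the lipid product of PI3K, was at 256, 87.4 and 0.85 RPM in the WT libraries and at 0.924, 0 and 79.1 RPM in those of MOG KO. Inpp5d, which encodes SHIP1, a phosphatase that acts on the same lipid, was present in all 6 libraries (69.2 to 986 RPM in WT, 415 to 697 RPM in MOG KO).

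Among other PI3K subunits and adaptors, 6 of 17 genes were tested, 3 positive and 3 negative, with a median of -0.13. Pik3r5, which encodes p101, the regulatory partner of p110-gamma, was at 709, 0.894 and 538 RPM in the WT libraries and at 0.924, 39 and 0.869 RPM in those of MOG KO, a log2 fold change of -5 ± 2.77. It was -8.93 ± 3.6 without MOG KO replicate 2 (adjusted p = 0.618 in edgeR), -4.43 ± 3.28 without WT replicate 1 and -3.58 ± 3.65 in limma-voom. Pik3r5 passed in neither edgeR nor DESeq2 (adjusted p = 0.161 in DESeq2). Pik3c3, the class III kinase of autophagy, was at 59.2, 0 and 0 RPM in the WT libraries and at 118, 0 and 413 RPM in those of MOG KO. Of the other class I catalytic genes, Pik3ca had 0.459 to 97 RPM over the 6 libraries, Pik3cg 0 to 595 RPM and Pik3cb at most 0.368 RPM. The regulatory gene Pik3r2 was under 2 RPM in every library (highest 1.79), and Pik3r3 at most 0.368 RPM. In WT libraries, therefore, none of Pik3r1, Pik3r2 and Pik3r3 reached 10 RPM, although Pik3cd was present in 2 of the 3.

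Among AKT activators and substrates, 8 of 16 genes were tested, 4 positive and 4 negative (median -0.01). Sgk1, a kinase related to AKT that mTOR complex 2 activates, was at 5.15, 0.894 and 3.12 RPM in the WT libraries and at 385, 6.65 and 465 RPM in those of MOG KO. The groups did not overlap. In the test of genotype the log2 fold change was 6.45 ± 2.48 (adjusted p = 0.82 in edgeR, 0.0226 in DESeq2). Gsk3b, a kinase that AKT inhibits, was at 166, 28.4 and 38 RPM in the WT libraries and at 14.3, 1.38 and 5.51 RPM in those of MOG KO (-3.51 ± 2.06, adjusted p = 1 in edgeR), and without WT replicate 1 the difference was -2.32 ± 2.45. Foxo1, the FOXO factor of T cells, was present in 5 libraries and had 3.67 RPM in MOG KO replicate 2, where Akt1 and Akt2 were also near 0. Pdpk1, which activates AKT, was present in WT replicate 2 (311 RPM) and MOG KO replicate 2 (373 RPM).

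Partners of mTOR were present in 21.4% of their library values, against 39.5% for all 143 other pathway genes. Of 14 partners, 6 were present in no library, 4 in 1 library and 0 in all 6, and all 3 tested genes had negative values (median -0.33). Rheb, the GTPase that activates complex 1, was at 62.9, 93.7 and 188 RPM in the WT libraries and at 0.231, 139 and 149 RPM in those of MOG KO, a log2 fold change of -0.33 ± 2.16. Mapkap1, which encodes SIN1 of complex 2, was at 470.2, 56.1 and 0.283 RPM in the WT libraries and at 148, 0.459 and 0.58 RPM in those of MOG KO. Mlst8, a subunit of both complexes, had 378, 251 and 0.283 RPM in WT and at most 0.459 RPM in MOG KO, and did not pass the filter (adjusted p = 0.00508 in DESeq2, lower in MOG KO).

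Genes that sense nutrients and energy had 0 members past the test. Of 25 genes of lysosomal sensing 9 were tested, 4 positive and 5 negative (median -0.16). Sesn1, an inhibitor of complex 1, was at 98.6, 184 and 565 RPM in the WT libraries and at 686, 533 and 492 RPM in those of MOG KO, and Lamtor1, a lysosomal anchor, 0.736, 155 and 0.283 RPM and 0.693, 4.13 and 32.7 RPM. Of 9 genes of AMPK and LKB1, which restrain mTOR when energy is low, 5 were tested, 4 positive and 1 negative (median 2.94). Prkab1, a regulatory subunit of AMPK, was at 1.1, 0.224 and 1.42 RPM in the WT libraries and at 35.6, 94.7 and 356 RPM in those of MOG KO. Its log2 fold change was 7.35 ± 2.48 (adjusted p = 0.674 in edgeR, 0.00939 in DESeq2). Prkag1, another subunit, was at 0.368, 26.6 and 1.13 RPM in the WT libraries and at 246, 129 and 0.29 RPM in those of MOG KO.

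Of the translation and autophagy outputs of complex 1, 13 of 20 genes were tested, 10 positive and 3 negative (median 0.41). Ulk2, an autophagy kinase, was at 1.47, 5.59 and 0.85 RPM in the WT libraries and at 0.231, 786 and 47.5 RPM in those of MOG KO (6.72 ± 3.05, adjusted p = 1 in edgeR, 0.0234 in DESeq2). Without MOG KO replicate 2, its highest library, Ulk2 was at 3.22 ± 2.81, and limma-voom gave 3.38 ± 3.29. Eif4ebp2, a translation repressor, was at 0.368, 178 and 31.2 RPM in the WT libraries and at 6.01, 3.67 and 2.32 RPM in those of MOG KO. Rps6kb1, which encodes the S6 kinase, was present in all 6 libraries at 38.6 to 494 RPM.

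Of the transcriptional outputs of complex 1, 11 of 20 were tested, 6 positive and 5 negative (median 0.29). Pgk1, a glycolytic enzyme, was at 33.8, 365 and 0.85 RPM in the WT libraries and at 40.7, 0 and 0.869 RPM in those of MOG KO. Of 15 FOXO target genes 11 were tested, 5 positive and 6 negative (median -0.04). The 2 named were Tcf7 (-7.61 ± 2.28, adjusted p = 0.602 in edgeR, 0.00331 in DESeq2) and Ccr7 (-5.45 ± 2.57, adjusted p = 1 in edgeR). Ccr7, a lymph node homing receptor, was present only in WT replicate 3, at 243 RPM. Without that library its log2 fold change was -1.19 ± 1.77, and limma-voom gave -2.91 ± 2.7 with all libraries.

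**Figure D4:**
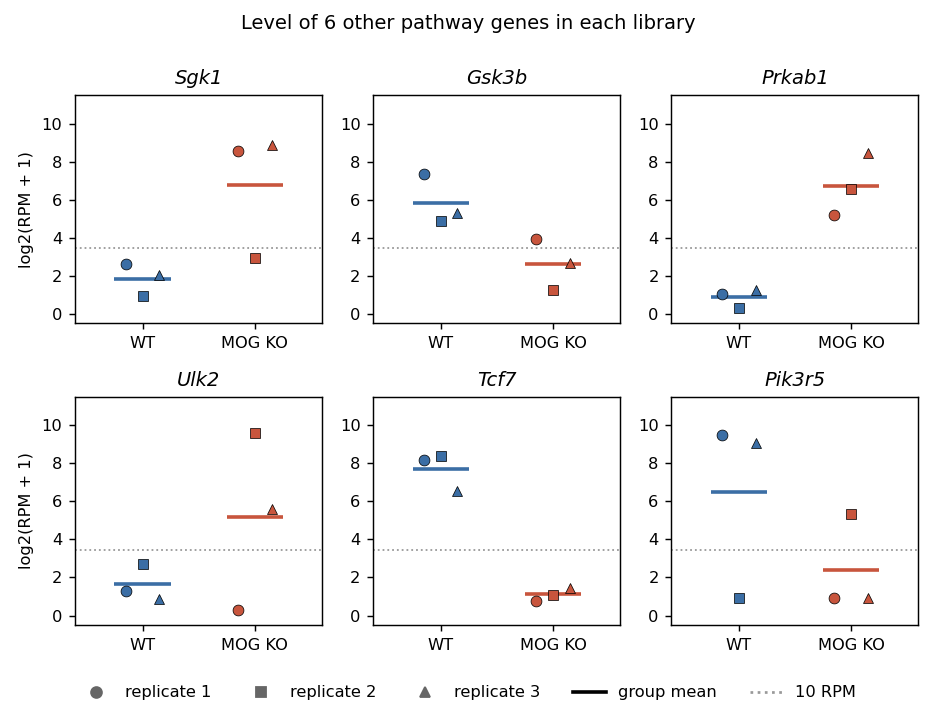
Panels plot log2(RPM + 1) of 6 other pathway genes in each library, with points, group means and the 10 RPM line drawn as for the 9 genes. The 6 were picked from the named genes by no set rule, and edgeR called 0 of the 71 tested. Named genes with small fold changes, such as Rheb (-0.33) and Sesn1 (0.88), are not drawn. Tcf7 is at 93.8 to 333 RPM in the WT libraries and near 0 in all MOG KO libraries, and Sgk1 is highest in 2 MOG KO libraries (385 and 465 RPM).

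**Figure D5:**
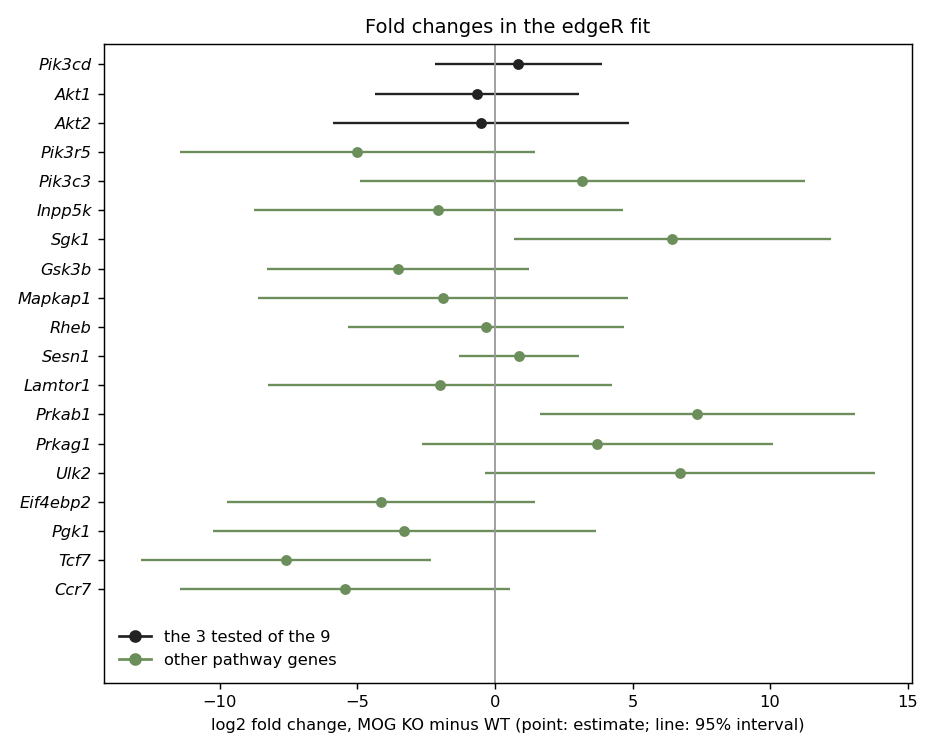
Points give the log2 fold change (MOG KO minus WT, x axis) in edgeR and lines its 95% interval, for the 3 tested of the 9 genes and for 16 other pathway genes. The intervals of Pik3cd, Akt1 and Akt2 hold 0, and none of the genes drawn passed after adjustment.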

How the data were processed

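cDNA was made from 500 Tregs per library (SMARTer V3 kit, 15 PCR cycles), tagged with NexteraXT and sequenced as single reads, per the labels' protocols. The authors deposited raw read counts in exons per gene, and STAR 2.3.1, R 3.2.2 and build mm10 are named in the submitters' processing notes. For the counting function, gene models and strand setting, the sources used here give nothing. The authors also deposited RPM, which divides each count by the library's total (2717969 to 4472549 counts). 1 row without a symbol was left out (at most 0.00548% of a library's counts).

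Genotypes were compared in edgeR 4.0.16 (R 4.3.3) with TMM scaling, the filterByExpr filter and the robust quasi-likelihood test, with Benjamini-Hochberg adjustment over 4087 genes and a threshold of 0.05. SE is the size of a log2 fold change over the root of its F, and intervals use its total degrees of freedom. Single genes were also compared on RPM by an exact two-sided permutation test. Alternatives were DESeq2 1.42.0, DESeq2 size factors, limma-voom (limma 3.58.1), other filters, the replicate number as a block and each library left out. Levels per length used the union of exons in GENCODE vM21 (GRCm38), which may differ from the authors' gene models. The figures plot log2(RPM + 1). The 9 genes and the 9 lists of other pathway genes (144 symbols, 143 in the table) were chosen with earlier results of these data known. Of each list, tested genes past the threshold were to be named, or the 2 of smallest p where none passed, and some of these are not reported here. For each of the 9 genes the closest other gene by log2(RPM + 1) was named too.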

Additional observations from a re-analysis of the deposited data

How the results depend on the processing

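The number of genes called moved with the tool. DESeq2 called 744 genes (271 higher in MOG KO and 473 lower), including 1 of the 9 pathway genes (Pik3r1) and 10 of the other pathway genes, where edgeR called 0 of each. The cause was not tested. edgeR also called 0 genes with DESeq2 size factors (204 at an unadjusted p under 0.05), with no filter (1133), with at least 50 counts in 3 libraries (145) and with each library left out (269 to 442), and limma-voom called 0 (260). Of the named genes that edgeR tested, Sgk1, Prkab1, Ulk2 and Tcf7 passed in DESeq2 and in no other setting, with the direction they had in edgeR. Mlst8, which did not pass edgeR's filter, passed in DESeq2 too (adjusted p = 0.00508, lower in MOG KO). When each library was left out, the log2 fold change ranged from -6.82 to 0.14 for Akt2, from -8.27 to 0.82 for Mapkap1, from -0.79 to 0.33 for Rheb and from -4.31 to 4.48 for Lamtor1. It turned positive for Akt2 without WT replicate 3 (0.14), MOG KO replicate 2 (0.08) or MOG KO replicate 3 (0.09), for Mapkap1 without WT replicate 1 (0.82), for Rheb without WT replicate 3 (0.33) or MOG KO replicate 1 (0.25), and for Lamtor1 without WT replicate 2 (4.48) and in limma-voom (0.36). Of the recomputed log2 fold changes, some of them of genes not reported here, 234 had the direction and call of edgeR's test. A further 8 were reversed, and 5 kept the direction but passed the threshold. The 9 genes had 22 of 54 values present at 10 RPM, 25 at 3 RPM and 20 at 30 RPM.

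With the replicate number as a block, 0 genes were called (143 at an unadjusted p under 0.05), and the log2 fold change was 1.71 for Pik3cd, -1.81 for Akt1 and -5.8 for Akt2. Deviations of same-numbered libraries from their group means correlated at -0.0236, -0.00343 and -0.0176 over 4087 genes. The labels do not say whether a shared number pairs libraries. With 3 libraries per group and many genes near 0 in some of them, these correlations cannot decide it. No library correlated best with the one of its own number, and the highest value, 0.0366, joined WT replicate 1 and MOG KO replicate 3. With 3 libraries per group and a median SE of 2.42 on the log2 scale over all genes tested, most intervals span both directions, and genes with few counts in most libraries could not be compared.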

Other observations

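Some genes upstream and downstream of the pathway were read in every library. Those named here were picked after their values were seen. Icos, a costimulatory receptor that recruits PI3K, was at 916, 822 and 915 RPM in the WT libraries and at 987, 975 and 1018 RPM in those of MOG KO. Cd28, the main costimulatory receptor, was at 744, 532 and 1035 RPM in the WT libraries and at 723, 285 and 915 RPM in those of MOG KO. The FOXO target Btg1 was at 586, 512 and 588 RPM in the WT libraries and at 534, 611 and 576 RPM in those of MOG KO. Klf2, a FOXO target linked to lymph node homing, was present in all 6 libraries, at 155 to 416 RPM.

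Rps6, a ribosomal protein and substrate of S6 kinase, was at 326, 1403 and 789.7 RPM in the WT libraries and at 521, 1265 and 1561 RPM in those of MOG KO. Of the 7908 genes that reached 10 RPM anywhere, 704 (8.9%) were present in all 6 libraries. A further 2537 (32.1%) were present in only 1 library, whichever it was. Genes with under 2 kb of exon were present in 48.9% of their library values, against 43.1% for those of 4 to 6 kb.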
